A study of Mus musculus with 288 samples.

Results

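Skeletal muscle was compared between mice kept in room air (normoxia) and mice exposed to intermittent hypoxia (IH), a model of the oxygen swings of sleep apnea. All 24 muscle libraries of each treatment were used, which are 48 of the 288 libraries of the series, and the genes described are the 8879 of 35904 whose mean over these 48 libraries was 5 TPM or more, TPM being a measure per transcript length that is scaled to one total in each library. The mice of both groups were wild-type C57BL/6J males of 8 weeks, and they received normoxia or IH during the light phase for 7 days. Both groups were then held in constant darkness in normoxia, so the IH group no longer breathed low oxygen when muscle was taken on the second day of darkness. Poly(A) RNA was sequenced at 8 time points 3 hours apart, with 3 mice for each time point and treatment, and the labels do not say which muscle was taken.

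Skeletal muscle burns glucose and fatty acids for contraction, and its fibers range from slow oxidative to fast glycolytic. Contraction starts when calcium leaves the sarcoplasmic reticulum at junctions held by proteins such as triadin. When oxygen falls, prolyl hydroxylases no longer mark hypoxia-inducible factors (HIFs) for degradation, and HIFs then raise genes of glycolysis, angiogenesis and mitophagy. Muscle also holds a circadian clock, in which CLOCK and BMAL1 (Arntl) drive their own repressors Per, Cry and Nr1d1.

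The libraries were muscle by their markers, since all 10 skeletal muscle markers were measured and none of the 12 heart markers reached a mean of 5 TPM. The summed heart markers reached at most 110 TPM in normoxia and 24.5 TPM after IH, against medians of 13.1 and 16.0 TPM. Summed lung markers reached at most 323 and 225 TPM, against medians of 12.3 and 12.1 TPM. The fast myosin heavy chain Myh4 ranged from 3293 to 7512 TPM in normoxia and from 3042 to 7407 TPM after IH. Read counts were not analysed here, so the depth of a library is unknown. Of the 48 libraries, 5 stood apart by the measures that follow. The median correlation with the others was lowest in the library of 16:30, replicate 2, after IH (r = 0.940 across genes), and the normoxia library of replicate 2 at 1:30 had 47.5% of its TPM in 10 genes. The IH libraries of replicate 1 at 1:30, 4:30 and 7:30 lay within or near the normoxia range for several of the genes that changed most, Trdn, Dpysl2, Zbtb20, Nucks1, Nfia, Lars2, Creb5 and Gm10359 among them, and these are given below also without replicate 1.

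Mean 24-hour expression in muscle moved by small amounts after IH, and few genes moved far. By limma, 1060 of 8879 genes had an adjusted p of at most 0.05 (11.9% of those tested), of which 593 rose (6.68%) and 467 fell (5.26%). Among these, 32 genes also differed by 1.5-fold (0.36%), with 23 higher and 9 lower after IH. Expression was higher or lower after IH at all 8 time points in 869 genes (9.79%). In 1 gene (0.0113%), the Golgi protein gene Tmf1, the 24 libraries of each treatment did not overlap, with 6.61 to 11.1 TPM in normoxia and 11.4 to 17.97 TPM after IH. Libraries were scaled to each other before the test, and this sets the direction of small changes. With TPM as deposited, the median gene moved by 0.08 on the log2 scale in place of -0.002, 1390 genes passed and 96.1% of them were higher after IH, against 55.9% here. With TPM as deposited, 41 genes passed both thresholds and 78.0% of them were higher, against 71.9% here. Leaving out replicate 2 left 279 genes at an adjusted p of 0.05 and 12 with a 1.5-fold change, the lowest numbers among the replicates left out in turn.

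**Figure D1:**
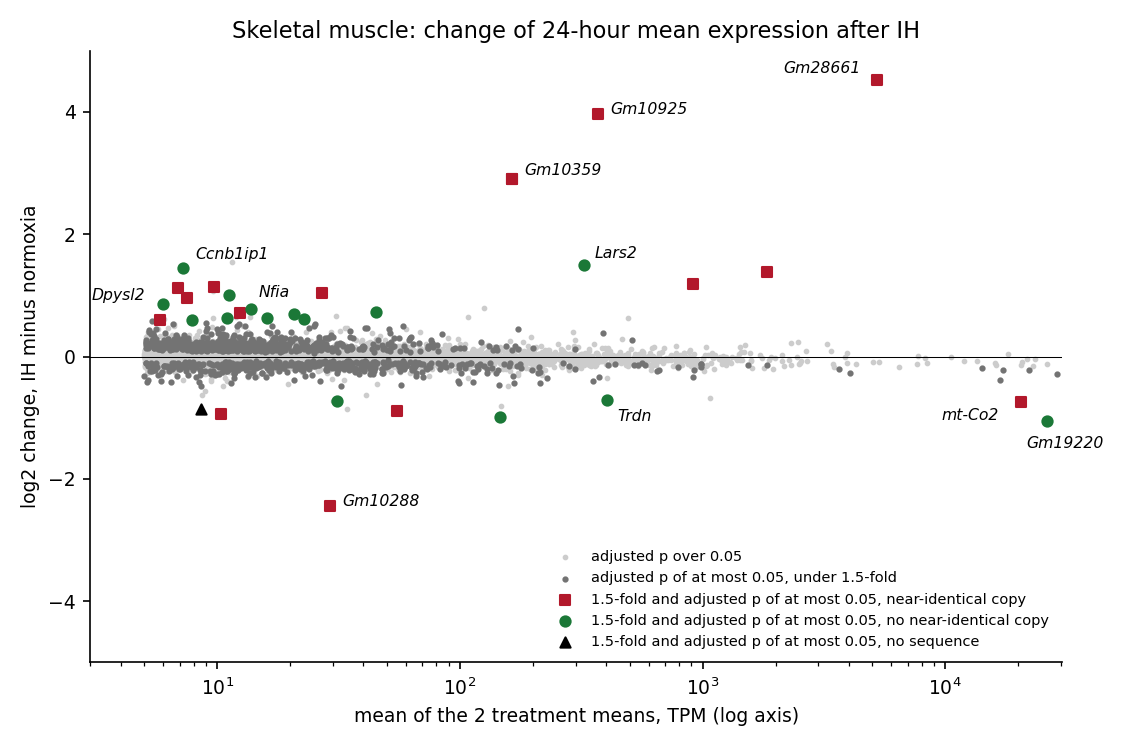
Log2 change after IH (vertical axis) of the 8879 genes against the mean of both treatment means in TPM (log axis). Squares are the 16 genes past both thresholds with a near-identical copy, circles the 15 without one and the triangle the 1 without a sequence, and Gm28661 at 4.53 and Gm10288 at -2.44 are the extremes.

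Of the 32 genes past both thresholds, 16 share at least 75% of their 31-base words with another gene, 15 do not, and 1 (Gapdh-ps16) had no sequence in the annotation used. The largest rise was that of Gm28661, a nuclear pseudogene copy of mt-Co2, the mitochondrial gene of cytochrome c oxidase subunit II. Gm28661 had 4.13, 376 and 2714 TPM as lowest, median and highest value in normoxia and 184, 11014 and 13600 TPM after IH, a log2 change of 4.53 ± 0.53 (SE; adjusted p = 1.02e-08, limma). Its source mt-Co2 went the other way, from a median of 23606 TPM (19498 to 33221) to 14506 TPM (9881 to 28823), with a log2 change of -0.74 ± 0.11 (adjusted p = 3.85e-06, limma). The opposite moves concern a single sequence. mt-Co2 lies at chrM:7013-7696 on the plus strand and Gm28661 at chr1:24614885-24615565 on the minus strand of GRCm38, and they differ at 0 of the 681 bases compared. The first 90 bases of both transcripts are shown because a read from them cannot be assigned to either gene.
mt-Co2: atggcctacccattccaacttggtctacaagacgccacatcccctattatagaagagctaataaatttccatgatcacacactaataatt
Gm28661: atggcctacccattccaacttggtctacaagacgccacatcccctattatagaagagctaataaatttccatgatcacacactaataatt
The sum of both genes did not differ past the threshold, with a median of 24390 TPM (19502 to 33416) in normoxia and 25624 TPM (22566 to 32387) after IH (log2 change -0.03 ± 0.07, adjusted p = 0.845, limma).

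The same held for other copies. Gm10925, with a log2 change of 3.96, is identical over 678 bases to mt-Atp6, a subunit of the mitochondrial ATP synthase, and the sum of both changed by -0.04 ± 0.07 (adjusted p = 0.804, limma). Gm10359 and Gm12671, each with a log2 change of 2.90 (4.11 for Gm10359 without replicate 1), hold 100% of their 31-base words in Gapdh, and the sum over 21 genes of this group changed by -0.11 ± 0.06 (adjusted p = 0.288). Gm10288 had the largest fall, 2.44 on the log2 scale, and it differs from the ribosomal protein gene Rpl11 at 1 of 537 bases, written G86A for Rpl11 against Gm10288 counted from the first base of the pseudogene. This base is in capitals in bases 46 to 135 of the pseudogene and the matching stretch of an Rpl11 transcript, shown because 31-base words that do not cover it fit both genes.
Rpl11: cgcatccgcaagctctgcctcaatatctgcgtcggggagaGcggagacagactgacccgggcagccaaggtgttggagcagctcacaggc
Gm10288: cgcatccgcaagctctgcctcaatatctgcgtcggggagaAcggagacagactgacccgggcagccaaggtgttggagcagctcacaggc
Rpl11 and Gm10288 together changed by 0.007 ± 0.07 (adjusted p = 0.966). The sum of Rps27rt and Rps27 changed by 0.18 ± 0.09 (adjusted p = 0.198) and that of the 10 Mup genes, which code for urinary carrier proteins made in the liver, by 0.64 ± 0.24 (adjusted p = 0.0798). The sums that passed were those of Ptges3 and its pseudogene (0.30 ± 0.05, adjusted p = 5.47e-05) and of Gm12895 and Gm12896 (1.29 ± 0.28, adjusted p = 0.00108), the latter from a median of 1058 to 3691 TPM. With each group summed into 1 gene, an analysis chosen after the data had been seen, 16 of 8855 genes passed both thresholds and 1038 passed the adjusted p alone.

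The share of the joint mt-Co2 and Gm28661 value that was listed for Gm28661 separated most libraries by treatment. In normoxia it ran from 0.0212% to 10.6% with a median of 1.61%, and after IH from 0.635% to 56.2% with a median of 45.0%. The exceptions were all of replicate 1. The IH libraries of replicate 1 gave 1.52% at 1:30, 1.64% at 4:30, 0.635% at 22:30 and 22.9% at 7:30, while the other 20 IH libraries lay between 29.6% and 56.2%. Those of 1:30, 4:30 and 7:30 also had Trdn within the normoxia range and Gm10359 at 1.71 TPM or less, against a normoxia median of 34.5 TPM, and the library of 22:30 had Trdn at 317 TPM, below it. Labels and methods name no batch, so the way the reads of a library were divided between identical sequences and its treatment cannot be told apart in the other libraries. Whether libraries of replicate 1 were exchanged between the treatments, or quantified in another run than the rest, was not tested. With this share as a further term, chosen after the data had been seen, 234 genes passed the adjusted p (98 higher and 136 lower), of which 125 were among the 1060. Because the share went with treatment in most libraries, this term also takes up much of the treatment difference. A gene that does not pass with the term can therefore not be called unchanged.

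**Figure D2:**
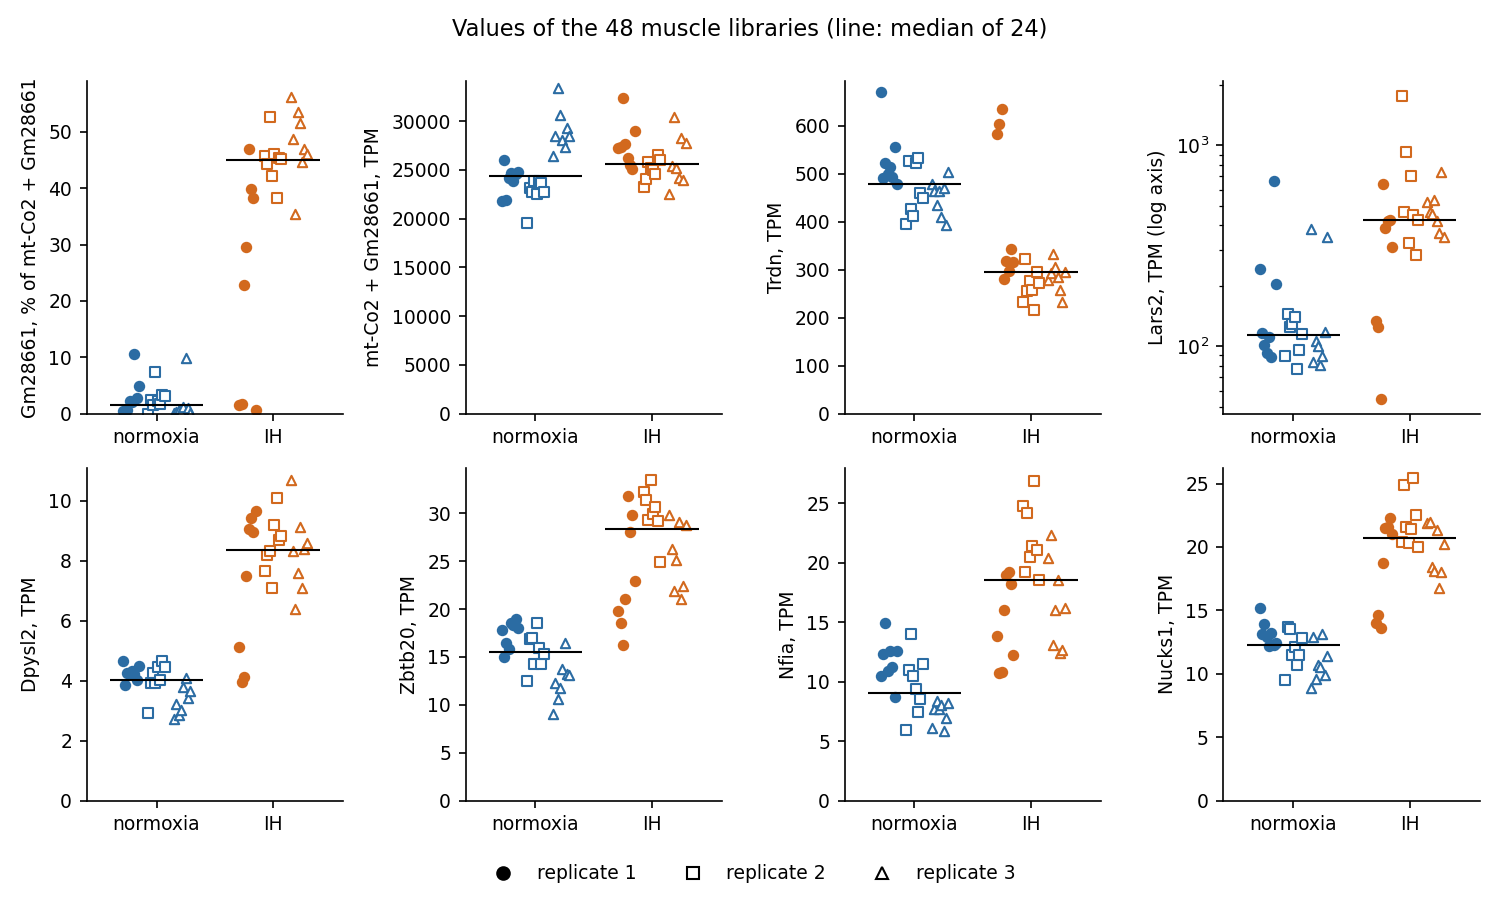
The 48 libraries by treatment, with 1 panel for the share of Gm28661 in its joint value with mt-Co2 (%), 1 for that joint value (TPM) and 1 each for Trdn, Lars2 (log axis), Dpysl2, Zbtb20, Nfia and Nucks1 (TPM). Filled circles are replicate 1, open squares replicate 2, open triangles replicate 3 and lines medians of 24, and 3 IH libraries of replicate 1 lie with the normoxia libraries for Trdn at 584 to 636 TPM.

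Among the 15 genes without a near-identical copy, 11 rose and 4 fell. Dpysl2, a microtubule-binding protein known from axon growth (chr14:66802864-66868688, minus strand), had 2.71, 4.02 and 4.67 TPM in normoxia (lowest, median, highest) and 3.97, 8.37 and 10.7 TPM after IH. All but 2 IH libraries lay above the normoxia range, those of replicate 1 at 4:30 and 7:30. The log2 change was 0.85 ± 0.07 (adjusted p = 1.91e-13, limma), 0.93 without replicate 1, and 0.45 (adjusted p = 0.0149) with the share of Gm28661 as a term. Zbtb20, a zinc-finger repressor of transcription (chr16:42875881-43642602, plus strand), went from 8.997, 15.5 and 19.0 TPM to 16.2, 28.4 and 33.5 TPM, with the same 2 IH libraries inside the normoxia range. Its log2 change was 0.69 ± 0.06 (adjusted p = 1.91e-13, limma) and 0.81 without replicate 1. Nucks1, a DNA-binding nuclear protein (chr1:131910534-131936321, plus strand), went from 8.91, 12.2 and 15.2 TPM to 13.6, 20.7 and 25.4 TPM, and 3 IH libraries overlapped the normoxia range. Its log2 change was 0.63 ± 0.04 (adjusted p = 2.92e-15, limma), 0.68 without replicate 1, and 0.40 (adjusted p = 0.00173) with the share as a term.

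Nfia, a transcription factor of the nuclear factor I family (chr4:97772734-98118874, plus strand), had 5.86, 9.03 and 14.9 TPM in normoxia and 10.7, 18.5 and 26.9 TPM after IH. Here 7 IH libraries overlapped the normoxia range. The log2 change was 0.77 ± 0.08 (adjusted p = 2.50e-10, limma), 0.96 without replicate 1, and 0.34 (adjusted p = 0.141) with the share of Gm28661 as a term. Aqp7, a channel for water and glycerol, rose from a median of 15.7 TPM (10.7 to 30.6) to 27.3 TPM (16.9 to 45.4), by 0.62 ± 0.10 (adjusted p = 1.17e-05), and did not pass with the share as a term (adjusted p = 0.124). Tnrc6b, a partner of Argonaute in microRNA silencing, rose by 0.60, and the zinc-finger gene Zfp101 by 0.62.

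Lars2, the leucyl-tRNA synthetase of mitochondria (chr9:123366927-123462666, plus strand), had 77.2, 113 and 668 TPM in normoxia and 54.8, 423 and 1762 TPM after IH. The ranges overlapped widely, since 20 of the 24 IH libraries lay at or below the highest normoxia library. The log2 change was 1.504 ± 0.25 (adjusted p = 1.92e-05, limma), 1.90 without replicate 1, and 0.29 (adjusted p = 0.776) with the share of Gm28661 as a term. Ccnb1ip1, a ubiquitin ligase that acts on cyclin B, and Creb5, a transcription factor of the CREB family, went with Lars2 from library to library. Of the 31-base words of Ccnb1ip1, 11.0% also occur in another gene, Rpph1. The part of reads from this shared stretch in the values of Ccnb1ip1 was not tested. Over the 24 libraries of a treatment, log2 TPM of Lars2 correlated with Ccnb1ip1 at r = 0.764 in normoxia and 0.911 after IH, with Creb5 at 0.863 and 0.789, and with the pseudogene Gm12895 at 0.893 and 0.982, values that share libraries and are given as a description. Ccnb1ip1 rose by 1.45 ± 0.33 (adjusted p = 0.00197) and Creb5 by 1.01 ± 0.27 (adjusted p = 0.00834), or by 1.79 and 1.38 without replicate 1. Without replicate 2 neither passed. With the share as a term they changed by 0.31 (adjusted p = 0.848) and 0.02 (adjusted p = 0.987).

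Among the 4 that fell, Trdn, which encodes triadin (chr10:33080554-33476709, plus strand), had 393, 478 and 671 TPM in normoxia and 216, 294 and 636 TPM after IH. The IH libraries of replicate 1 at 1:30, 4:30 and 7:30 had 584, 604 and 636 TPM, and the other 21 IH libraries lay below the normoxia range. The log2 change was -0.71 ± 0.09 (adjusted p = 2.34e-07, limma), -0.91 without replicate 1, and -0.01 (adjusted p = 0.977) with the share of Gm28661 as a term. The other 3 were Gm19220, a pseudogene, Zrsr1, an imprinted gene related to the splicing factor U2AF1, and Grip2, a scaffold protein of glutamate receptors. Their largest values came from 1 library, the normoxia library of replicate 2 at 1:30, where Gm19220 had 319921 TPM, Zrsr1 had 1435 TPM and Grip2 had 240 TPM. Gm19220 correlated with Zrsr1 at r = 0.965 in each treatment and with Grip2 at 0.932 in normoxia and 0.912 after IH (log2 TPM, 24 libraries each). Zrsr1 had a median of 137 TPM in normoxia and 73.7 TPM after IH, a log2 change of -0.996 ± 0.26 (adjusted p = 0.00709, limma). Grip2 fell by 0.73 ± 0.22 (adjusted p = 0.0199), and without replicate 1 neither it nor Zrsr1 passed. Without replicate 2, which holds that library, none of the 3 passed, with log2 changes of -0.60 for Gm19220, -0.66 for Zrsr1 and -0.54 for Grip2.

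Some of the smallest p-values, with those of Nucks1, Dpysl2 and Zbtb20, belonged to changes below 1.5-fold, and the genes that follow were chosen after their values were seen. Bod1l, which protects replication forks, rose from a median of 5.22 TPM (3.44 to 6.71) to 8.09 TPM (5.98 to 9.78), with a log2 change of 0.53 ± 0.04 (adjusted p = 5.33e-16, limma). Within the replicate numbers 1, 2 and 3 its log2 changes were 0.41, 0.54 and 0.64. Rc3h2, an RNA-binding ubiquitin ligase, rose by 0.44 ± 0.04 (adjusted p = 9.33e-13) and Smc3, a ring subunit of cohesin, by 0.30 ± 0.03 (adjusted p = 1.23e-11). With the share of Gm28661 as a term Bod1l changed by 0.40, Rc3h2 by 0.37 and Smc3 by 0.28, and each passed the adjusted p.

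Genes that rose and genes that fell differed in base composition and length. Transcripts of genes that rose had a median GC content of 47.1% and a longest transcript of 4850 bases at the median, against 55.8% and 2589 bases for those that fell and 51.2% and 3151 bases for all genes. Of the 1755 genes with the lowest GC content 219 rose and 33 fell, and of the 1754 with the highest 22 rose and 210 fell. By length, 42 rose and 127 fell among the 1755 genes with the shortest transcripts, and 288 rose and 39 fell among the 1754 with the longest. Across 8771 genes, which are not independent, the log2 change had a rank correlation of -0.341 with GC content and 0.217 with length. With both corrected per library, 920 genes passed the adjusted p, of which 48.3% rose and 644 were among the 1060 of the main fit. Both thresholds were passed by 27. Of the named genes that had passed, 48 still passed with this correction and 9 did not, among them Egln3, Pkm, Gpi1, Mdh2, Uqcrc1, Cacna1s and Gabpa. The part of base composition in the changes of single genes was not tested.

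**Figure D3:**
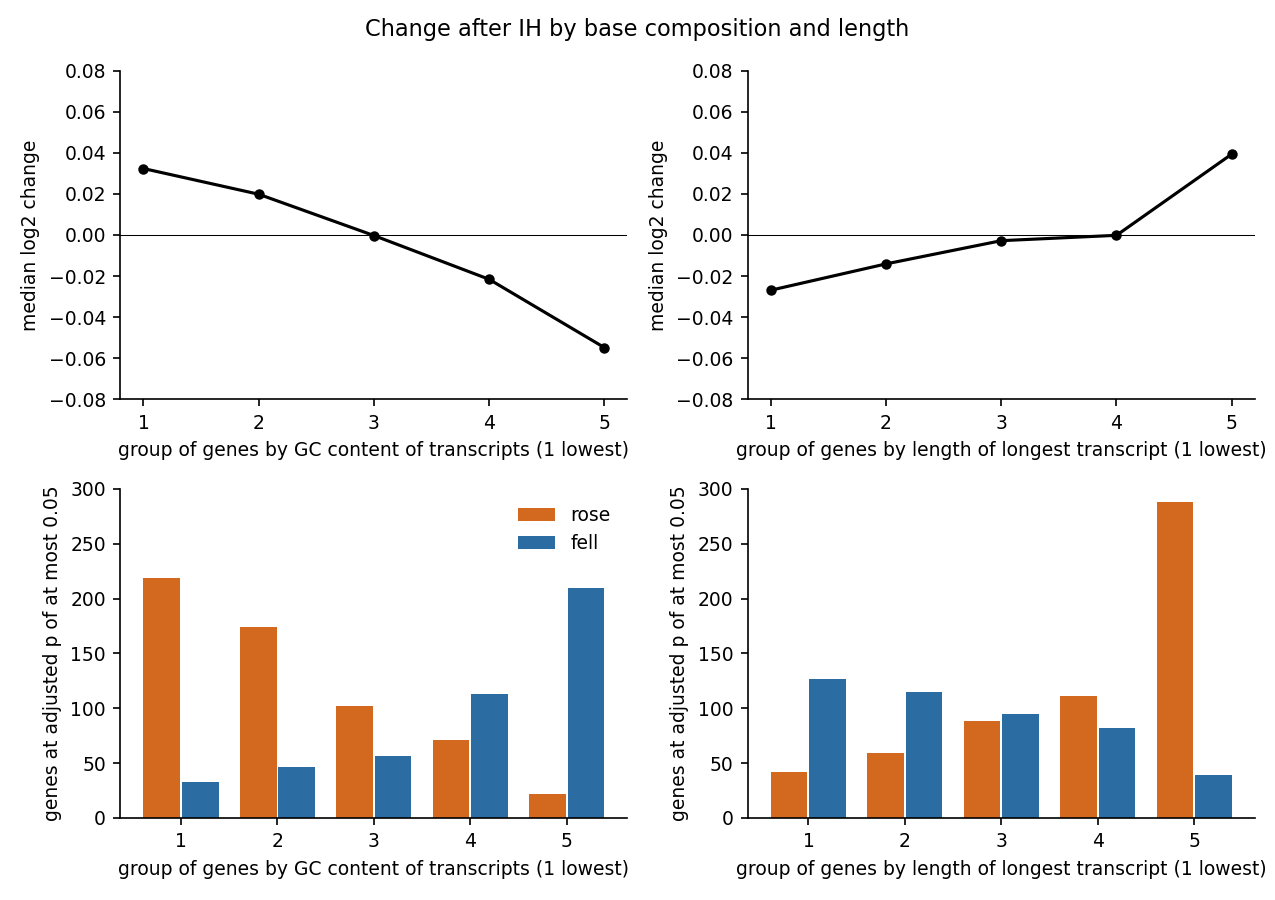
Genes in 5 groups of equal size by GC content of their transcripts (left) and by length of their longest transcript (right), with the median log2 change after IH (upper row) and the number of genes at an adjusted p of at most 0.05 that rose or fell (bars, lower row). The median falls from 0.03 in the group of lowest GC content to -0.05 in that of the highest.

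Oxygen sensing changed little at the level of transcripts. Of 9 genes of prolyl hydroxylases, HIF subunits and their partners, 8 were measured, Hif3a being below 5 TPM, and 1 passed, against 11.9% of all genes. Egln3, the prolyl hydroxylase that HIF itself induces, went from 3.28, 5.48 and 8.23 TPM to 4.32, 7.26 and 14.97 TPM (lowest, median, highest), and the groups overlapped. Its log2 change was 0.32 ± 0.11 (adjusted p = 0.0414, limma), and it did not pass when any of the 3 replicate numbers was left out. Hif1an, the asparagine hydroxylase of HIF, had a log2 change of -0.12 ± 0.04 (adjusted p = 0.052), Hif1a one of -0.05 ± 0.05 (adjusted p = 0.627) and the main prolyl hydroxylase Egln1 one of 0.03 ± 0.05 (adjusted p = 0.755). Of 25 measured HIF targets 2 rose and none fell, 8% against 6.68% of all genes that rose, with a median log2 change of 0.04 against -0.002. With TPM as deposited 6 rose, and without replicate 2 or with the share of Gm28661 as a term none passed. Vegfa, the growth factor of vessels, rose from 65.2, 106 and 149.98 TPM to 79.5, 136 and 214 TPM, by 0.24 ± 0.06 (adjusted p = 0.00842), but did not pass without replicate 2 or without replicate 3, and Egln3 was the other. Tfrc, the transferrin receptor, had 0.27 ± 0.10 (adjusted p = 0.0589).

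Genes of energy metabolism that passed moved by less than 0.3 on the log2 scale, mt-Co2 excepted. The number that passed in these lists is to be read against 11.9% of all genes, and most shares were near or below it. In glycolysis and glycogen use 3 of 19 fell and none rose, with a median of -0.07. These were Gapdh (-0.26 ± 0.07, adjusted p = 0.00505), whose reads also fit its many pseudogenes, Pkm (-0.14 ± 0.05, adjusted p = 0.0424) and Gpi1 (-0.13 ± 0.04, adjusted p = 0.0444). With TPM as deposited 1 gene of this list fell, and without replicate 2 or with the share of Gm28661 as a term none passed. None of 26 genes of fatty acid uptake and oxidation passed, with a median of 0.04 and 22 of them above 0. Within replicate numbers 1, 2 and 3 their medians were -0.005, 0.24 and -0.09. With the share of Gm28661 as a term the median was -0.05. The smallest p there was that of the fatty acid transporter Slc27a1 (0.29 ± 0.10, adjusted p = 0.056).

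Of 22 genes of the citric acid cycle 1 fell, the malate dehydrogenase Mdh2 (-0.11 ± 0.03, adjusted p = 0.0332), whereas with TPM as deposited 2 rose and none fell. Of 36 complex I subunits 1 rose, Ndufa10 (0.14 ± 0.04, adjusted p = 0.0337). Of 35 subunits of complexes III and IV and the ATP synthase 4 fell and none rose, with a median of -0.09. They were Atp5b, Atp5g2 and Atp5g3 of the ATP synthase and Uqcrc1 of complex III, and Atp5g2 fell most (-0.29 ± 0.09, adjusted p = 0.0241). Of 13 subunits encoded by mitochondrial DNA only mt-Co2 passed. These counts moved with the libraries used. Without replicate 1, 10 complex I subunits and 16 of complexes III, IV and the ATP synthase fell, without replicate 2 none of either list passed, and with TPM as deposited 2 of the latter list rose and 1 fell. Among regulators of mitochondria, 2 of 15 rose, the coactivator Ppargc1a from a median of 4.55 to 6.37 TPM (0.28 ± 0.06, adjusted p = 0.000629) and the transcription factor Gabpa (0.14 ± 0.04, adjusted p = 0.0229).

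Some contractile genes of fast fibers fell after IH. Of 15 fast fiber genes 3 fell, against 5.26% of all genes, and none rose, 14 lay below 0 and the median was -0.15. Myl1, the fast myosin light chain, went from 13401, 18213 and 22027 TPM to 9141, 15580 and 20322 TPM (lowest, median, highest), with overlapping groups and a log2 change of -0.38 ± 0.08 (adjusted p = 0.000671, limma). Within replicate numbers 1, 2 and 3 its changes were -0.03, -0.38 and -0.73. Pvalb, the calcium buffer parvalbumin, fell by 0.22 ± 0.06 (adjusted p = 0.00509) and Tpm1, a tropomyosin, by 0.19 ± 0.05 (adjusted p = 0.0116). Without replicate 3 none of the 15 passed, and without replicate 1 there were 6 that fell. With the share of Gm28661 as a term none passed, and Myl1 changed by -0.06 (adjusted p = 0.869). None of the 14 slow fiber genes passed, although 13 lay above 0 and the median was 0.37. Within replicate numbers 1, 2 and 3 their medians were 0.61, -0.19 and 0.61, and with the share of Gm28661 as a term the median was -0.11. The slow myosin Myh7 ranged from 0.177 to 40.3 TPM in normoxia and from 0.716 to 43.7 TPM after IH, a spread against which its log2 change of 0.64 ± 0.48 (adjusted p = 0.427) was not past the threshold. The labels do not name the muscle, so fiber composition and expression per fiber cannot be told apart, and in these bulk samples fewer cells of a type and less RNA per cell cannot be told apart either.

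Of 16 genes of excitation-contraction coupling 2 passed (12.5% against 11.9% of all genes), and both fell, Trdn and Cacna1s, the voltage sensor of the calcium channel (-0.25 ± 0.07, adjusted p = 0.0203). With TPM as deposited 1 of the list rose and 1 fell. Of 10 general muscle markers 4 passed. The actin Acta1 (-0.28 ± 0.07, adjusted p = 0.00489), the creatine kinase Ckm (-0.22 ± 0.06, adjusted p = 0.0101) and Pvalb fell, while the giant sarcomere protein gene Ttn rose from a median of 52.3 to 72.1 TPM (0.32 ± 0.07, adjusted p = 0.00186). Ttn has a longest transcript of 106824 bases and Acta1 one of 1446 bases. With length and GC content corrected, 1 of the 10 markers rose and 4 fell. Without replicate 2, 1 rose and none fell, and without replicate 3, 2 fell and none rose. With the share of Gm28661 as a term none of the 10 passed.

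**Figure D4:**
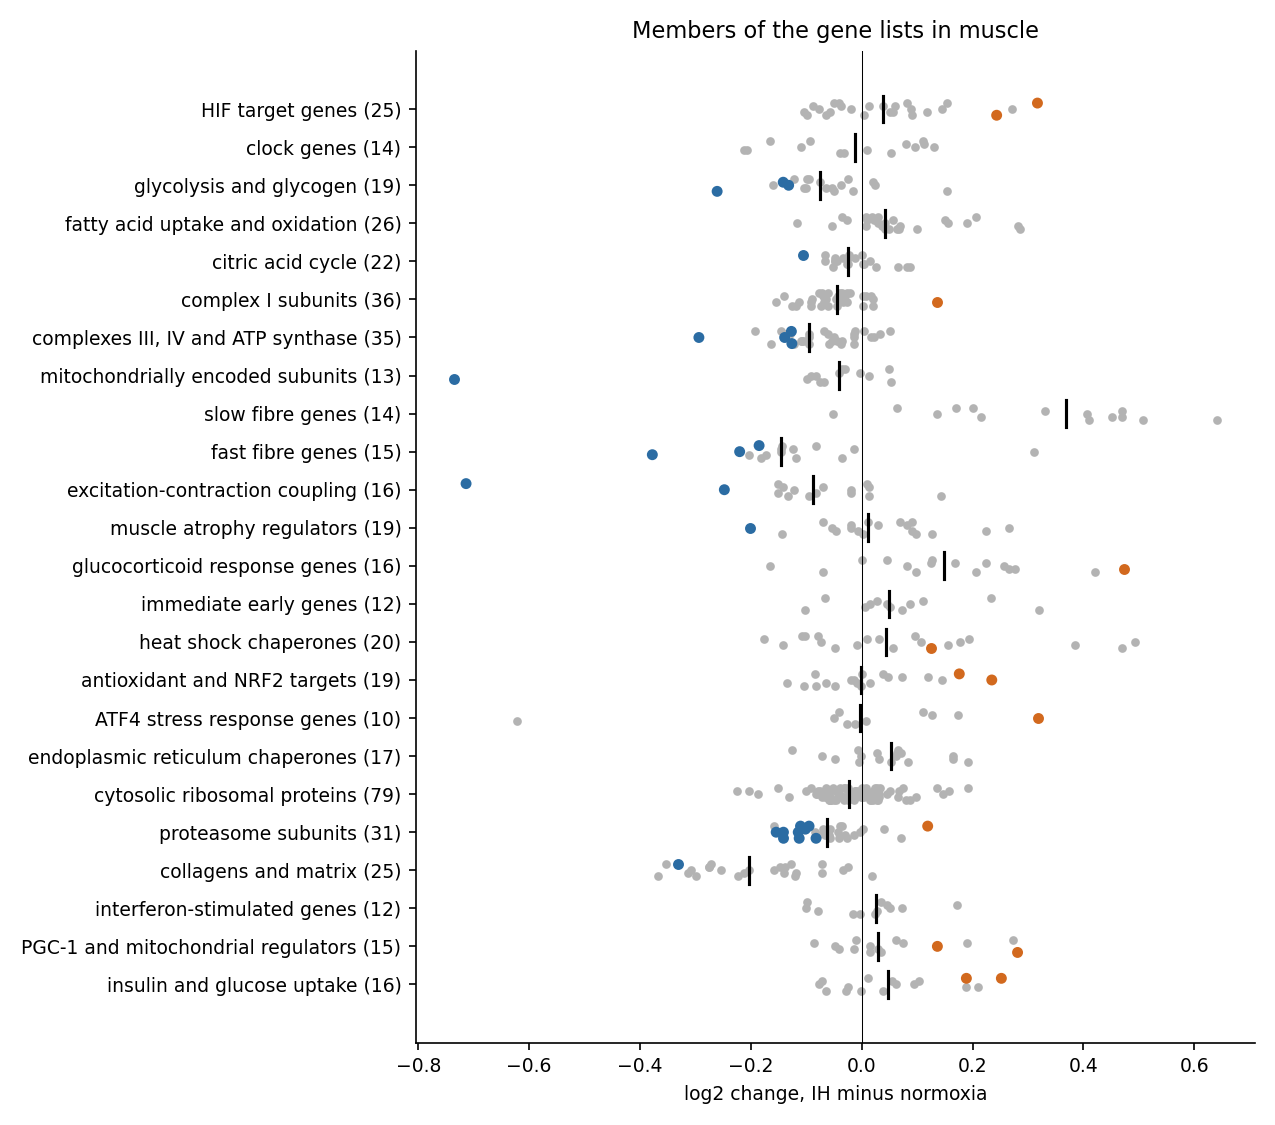
Log2 change after IH of the members of 24 gene lists with at least 10 measured members, the number of which stands in brackets. Large points passed an adjusted p of 0.05, small gray points did not and black bars are medians, with proteasome subunits showing 9 falls and 1 rise and slow fiber genes a median of 0.37 without a gene that passed.

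The proteasome, which breaks down proteins tagged with ubiquitin, had the largest share of members that passed among the lists of function. Of 31 subunits 9 fell and 1 rose, with a median of -0.06, against 11.9% of all genes. The falls were small, from -0.08 for Psmd14 to -0.15 for Psmd8, and Psmd2 went from 63.7, 97.3 and 116 TPM to 75.5, 91.3 and 101 TPM (-0.14 ± 0.03, adjusted p = 0.000511, limma). Psmd11, a lid subunit, rose by 0.12 ± 0.03 (adjusted p = 0.000782). The direction rests on the scale, since with TPM as deposited 2 subunits rose and none fell. Without replicate 1, 16 fell and 1 rose, and without replicate 2, 1 rose and none fell. Among 19 regulators of muscle atrophy 1 fell, the autophagy receptor Sqstm1 (-0.20 ± 0.04, adjusted p = 0.000755). With TPM as deposited 1 of this list rose and none fell, and without replicate 2 or with the share of Gm28661 as a term none passed. None of 79 ribosomal protein genes passed, with a median of -0.02 and a range from -0.22 to 0.19, but within replicate numbers 1, 2 and 3 the medians were 0.28, -0.13 and -0.21. With TPM as deposited 7 rose, without replicate 1 there were 4 that fell and without replicate 3 there were 4 that rose.

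Stress and hormone genes showed single rises, in shares of each list (5% to 12.5%) near or below the 11.9% of all genes that passed. Zbtb16, a zinc-finger gene induced by glucocorticoids, was the only 1 of 16 in its list to pass, from a median of 17.6 to 25.7 TPM (0.47 ± 0.15, adjusted p = 0.0271), and 14 of the 16 lay above 0. Ddit3, the stress factor CHOP, rose from a median of 29.3 to 37.9 TPM (0.32 ± 0.08, adjusted p = 0.00634), alone among 10 measured genes of the ATF4 response. Of 19 antioxidant genes 2 rose, the glutathione reductase Gsr (0.23 ± 0.06, adjusted p = 0.00417) and Gclc of glutathione synthesis (0.18 ± 0.04, adjusted p = 0.00487). Of 20 heat shock chaperones the mitochondrial Hspd1 rose (0.12 ± 0.04, adjusted p = 0.0258). In insulin signaling 2 of 16 rose, the receptor Insr from a median of 9.80 to 13.2 TPM (0.25 ± 0.06, adjusted p = 0.00148) and Tbc1d4, which controls GLUT4 traffic (0.19 ± 0.06, adjusted p = 0.0186). None passed among 17 chaperones of the endoplasmic reticulum, 12 immediate early genes, 12 interferon-stimulated genes, 2 cold-inducible genes, 3 genes of proliferation and 3 of regeneration. None of the stress, antioxidant, insulin and glucocorticoid genes named above passed without replicate 2 or with the share of Gm28661 as a term.

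Of 25 genes of collagens and matrix 24 lay below 0, with a median of -0.20, and 1 fell (4%, against 5.26% of all genes). This was Sparc, from a median of 928 TPM (625 to 1549) to 861 TPM (352 to 1805), by 0.33 ± 0.10 (adjusted p = 0.0227). With TPM as deposited, without replicate 2 or with the share of Gm28661 as a term none of the list passed. The median was 0.01 with that term, and -0.26, -0.12 and -0.24 within replicate numbers 1, 2 and 3. Markers of other cell types mostly did not pass. None did among 12 endothelial, 12 adipocyte, 10 macrophage, 7 neutrophil, 5 erythroid and 5 Schwann cell markers. The summed adipocyte markers ranged from 5063 to 24091 TPM in normoxia and from 7229 to 38393 TPM after IH, the neutrophil markers from 4.18 to 1677 TPM and from 7.23 to 1616 TPM, and the erythroid markers from 3153 to 10914 TPM and from 3159 to 19773 TPM. Of the 10 markers of fibro-adipogenic progenitors Pi16 and Mfap5 fell, with sums of 1743 to 3923 TPM and 1935 to 5287 TPM, and of 8 tendon markers Cilp2 fell (-0.41 ± 0.13, adjusted p = 0.0293), with sums of 96.1 to 344 TPM and 68.6 to 258 TPM. Of 9 markers of pericytes and smooth muscle Tagln rose (0.21 ± 0.05, adjusted p = 0.00376) and Smtn fell, and of 4 satellite cell markers Sdc4 rose (0.27 ± 0.08, adjusted p = 0.0113). In that order 20%, 12.5%, 22.2% and 25% of these small lists passed, against 11.9% of all genes. With TPM as deposited no progenitor or tendon marker passed. Without replicate 1 no tendon marker passed, and 1 progenitor marker rose while none fell. Without replicate 2 or with the share of Gm28661 as a term no marker of these lists passed. The part of other cell types in the changes above was not tested.

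Clock genes of the muscle peaked at similar times in both groups. Of 17 clock genes 14 reached a mean of 5 TPM (Per2, Npas2 and Ciart did not), none changed in 24-hour mean with treatment as the only term, and 13 were rhythmic in each treatment. With cosine and sine terms in the model, which take the daily rhythm out of the spread, Bhlhe41 fell by 0.21 (adjusted p = 0.00978) and Hlf, a factor related to Dbp, rose by 0.13 (adjusted p = 0.0437). Arntl had its lowest mean at 10:30, with 1.98 ± 0.58 TPM in normoxia and 1.62 ± 0.28 TPM after IH (SD, n = 3), and its highest at 22:30, with 17.7 ± 0.97 and 20.2 ± 1.81 TPM. The output factor Dbp peaked at 10:30 in normoxia (156 ± 26.4 TPM) and at 7:30 after IH (176 ± 18.8 TPM). The fitted time of peak (acrophase) was 23.0 h and 22.8 h for Arntl, 5.69 h and 5.31 h for Nr1d1, 10.1 h and 9.78 h for Dbp and 11.3 h and 10.8 h for Per3, on the time scale of the labels. Over the 13 genes the shift had a median size of 0.55 h, with samples 3 hours apart, and Bhlhe41 had the largest shift, from 7.36 h to 8.86 h.

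Amplitudes were larger after IH in 12 of the 13, but no difference in rhythm passed the adjusted p. The fitted log2 amplitude was 1.42 in normoxia and 1.69 after IH for Arntl (unadjusted p of a changed rhythm 0.0248), 1.61 and 1.97 for Dbp (0.0101), 0.93 and 1.18 for Per3 (0.00751), 0.62 and 0.86 for Nr1d2 (0.00615), 0.35 and 0.54 for Bhlhe41 (0.0129) and 0.39 and 0.53 for Tef (0.0384). Each of these 6 had an adjusted p of 1.00 over all genes. Nfil3, which represses the targets of Dbp, was the exception with 0.98 and 0.97.

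**Figure D5:**
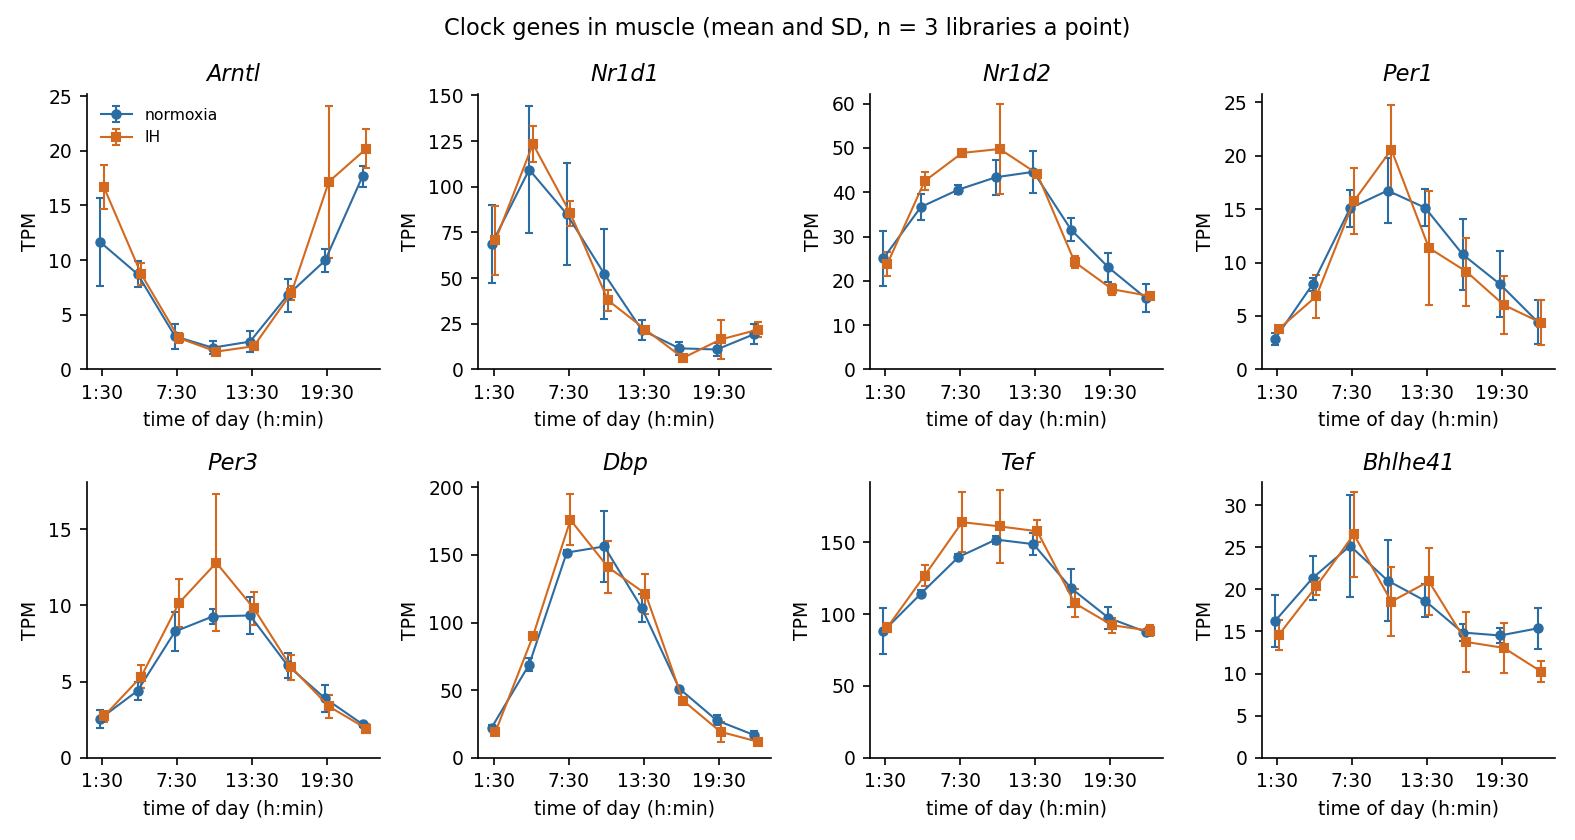
TPM of 8 clock genes over the 8 time points in normoxia (circles) and after IH (squares), as mean and SD of 3 libraries a point. Dbp reaches 156 TPM in normoxia and 176 TPM after IH, and Arntl falls below 2.00 TPM at 10:30 in both.

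Over all genes, 568 were rhythmic in normoxia (6.4%), 1104 after IH (12.4%) and 388 in both (4.37%) at an adjusted p of 0.05. More genes passed after IH, but in the test of the difference itself 0 genes (0%) had a changed rhythm, with 366 at an unadjusted p of 0.05 and a smallest adjusted p of 0.499. Of the 388 genes rhythmic in both, 245 had a larger amplitude after IH, with median log2 amplitudes of 0.27 and 0.29, and 7 had acrophases at least 4 hours apart. The smallest unadjusted p was that of Enah, an actin regulator (5.61e-05), with a peak at 18.5 h in normoxia and at 2.83 h after IH. Reps1, of receptor endocytosis, was among the next. Hmox1, the heme oxygenase that oxidative stress induces, had log2 amplitudes of 0.26 and 0.52 (unadjusted p = 0.000491, adjusted p = 1.00), and Tgfb2 and Ntng2 had larger p-values.

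The heart, the other striated muscle of the series, was used to see where the muscle differed. Of 7620 genes measured in both, 2664 had a different change in muscle and heart (35%), 1372 of them more upward in muscle. With TPM as deposited 1712 passed, 580 of them more upward in muscle, so the direction rests on the scale here too. Dpysl2, Zbtb20, Nfia and Nucks1, which rose in muscle, had log2 changes of -0.02, -0.08, 0.08 and 0.004 in heart, and the differences of 0.87, 0.78, 0.70 and 0.62 each passed. These are scaled values. As deposited, their heart medians went from 4.74 to 5.68, 10.3 to 11.1, 5.86 to 7.15 and 7.64 to 9.62 TPM. Trdn had -0.06 in heart, a difference of -0.65 ± 0.15 (adjusted p = 0.000276, limma). Lars2 changed more in heart, by 3.67, where normoxia ranged from 73.2 to 192 TPM and IH from 286 to 8450 TPM without overlap, and the difference was -2.16 ± 0.38 (adjusted p = 6.33e-06). Vegfa differed in direction, with 0.24 in muscle and -0.78 in heart (difference 1.02 ± 0.14, adjusted p = 1.44e-08). Gm28661 reached 361 TPM at most in the heart, against 13600 TPM in muscle. Egln3 differed by 0.20 ± 0.14 (adjusted p = 0.249). The libraries of both tissues were taken as independent, although several organs may come from 1 mouse, since the labels do not say which libraries share one.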

How the data were processed

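The authors quantified reads with Kallisto against the Ensembl mouse transcriptome of release 102 (mm10), checked them with FastQC 0.11.3 and deposited TPM per gene. Per the labels each library has a treatment, time point and replicate number, and per the methods each is 1 mouse. Each library was divided by a size factor, its median ratio to the geometric means of the genes, and log2 values with a pseudocount of 0.5 were tested, where the mean TPM reached 5, in limma 3.58.1 (R 4.3.3) with treatment as the only term, 2-sided, with Benjamini-Hochberg adjustment. TPM values printed are as deposited, and log2 changes are on the scaled log2(TPM + 0.5) scale, which understates changes of low genes. Rhythm was tested by F-tests of cosine and sine terms of 24 hours per treatment, and muscle against heart by an interaction. Gene positions (GRCm38) and sequences come from GENCODE mouse release M21, in which 98.78% of the genes had a single match, and 31-base words were compared on either strand. Tables and figures used Python 3.11.15, pandas 2.3.3 and matplotlib 3.10.9. The fits were tested on simulated data. The comparison, the gene lists and the tests were chosen with earlier results of these data known. The named genes are the largest rises and falls past both thresholds (12 at most in each direction), clock and oxygen-sensing genes, up to 4 of each list by p, 6 by p of changed rhythm, and genes past both thresholds that differ from heart; others are named as chosen after their values were seen. Alternatives were other pseudocounts, filters and scalings, terms for time, replicate block, length and GC content, library weights, and leaving out replicates or time points. The estimated counts that the authors gave to DESeq2 were not analysed here. Some genes that the rule names are not reported here.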

Additional observations from a re-analysis of the deposited data

Results flagged for a closer look

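In 17 genes that passed both thresholds in muscle the change differed from that in heart by the interaction term (adjusted p of at most 0.05), and the differences (muscle minus heart, log2) follow. Among genes without a near-identical copy, Dpysl2 differed by 0.87, Zbtb20 by 0.78, Nfia by 0.70, Nucks1 by 0.62 and Aqp7 by 0.58, the change being more upward in muscle. Mup11 differed by 0.87 in the same direction. It shares 66.4% of its 31-base words with Mup14, below the 75% used, and belongs to the Mup genes whose sum did not pass in muscle. The rise of Mup11 in muscle did not pass when any replicate number was left out. Trdn, which fell in muscle, differed by -0.65. Creb5 differed by -1.93, Lars2 by -2.16 and Ccnb1ip1 by -2.28, and these genes rose in both tissues but more in heart. Their heart medians went from 3.47 to 28.7 TPM, from 103 to 1521 TPM and from 2.59 to 40.9 TPM. Among genes with near-identical copies, Gm28661 differed by 8.04, Gm48836 by 2.51 and Gm28900 by 2.41, and Rps27rt by -1.22, Gm12895 by -2.21, Gm12896 by -2.41 and Gm10108 by -2.71. Over all 7620 genes tested 35% passed.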

How the results depend on the processing

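Of the 59 named genes that passed, each that could be fitted kept its direction under every alternative but a term for the share of Gm28661, and leaving out replicate 2 kept 16 of them past the threshold. That term kept 6 past the threshold, with 45 in the same direction but not past it. The share went with treatment in most libraries, so not passing under that term does not show that a gene is unchanged. The number with a 1.5-fold change ranged from 12 to 44 when replicates or time points were left out, and was 12 with the share of Gm28661 as a term and 16 with copies summed. The number at an adjusted p of 0.05 ranged from 279 to 1250, and was 234 with that share as a term. Under that term Rps27rt (0.69), mt-Co2 (0.23), Gm12671 (-2.13), Gm10359 (-2.13), Gm12895 (-0.17), Gm12896 (-0.55), Pvalb (0.0004) and Zbtb16 (-0.066) changed direction. The share is computed from mt-Co2 and Gm28661 themselves, so the value of mt-Co2 under that term is not an independent result. The cause in the other genes was not tested. Rhythmic genes in normoxia ranged from 174 to 546 with replicates or time points left out, numbered 650 without the IH library of replicate 2 at 16:30, and numbered 328 at a mean of at least 10 TPM, 185 with TPM as deposited and 1134 with library weights. Rhythmic genes after IH ranged from 371 to 1256, and numbered 1675 at 1 TPM, 721 at 10 TPM, 307 with TPM as deposited and 1722 with the replicate block with length and GC correction. Changed rhythms ranged from 0 to 1, with 1 at a mean of at least 1 TPM and 1 with the time point 22:30 left out. Muscle against heart ranged from 1079 to 3204 genes, and was 1712 with TPM as deposited and 2909 with same-numbered libraries of both tissues as 1 animal.

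Libraries with the same number at the same time deviated together weakly at the median (r over 0.1 in 11 of 24 pairs, median 0.092, from -0.194 to 0.575). On the axis of largest spread among libraries (24.2% of the variance), normoxia libraries of replicate 1 were negative and those of replicate 3 positive. After IH, replicate 3 was positive except at 1:30, and replicate 1 lay on both sides. The main fit holds no term for the number, and what the numbers stand for was not tested. With the replicate block 1362 genes passed the adjusted p and 35 both thresholds, with the block by time point 1372 and 36, and with the block and length and GC correction 1195 and 29. Without the IH library of replicate 2 at 16:30, 1104 and 31 genes passed, and without the normoxia library of replicate 2 at 1:30, 1046 and 29, both chosen after seeing the data.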

Other observations

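Genes of class II antigen presentation, a group chosen after its values were seen, were lower after IH. All 6 measured members fell, against 5.26% of all genes, with a median log2 change of -0.41. Cd74, the invariant chain, had a median of 232 TPM (130 to 380) in normoxia and 178 TPM (85.3 to 474) after IH, with overlapping groups (-0.43 ± 0.10, adjusted p = 0.00363, limma). H2-Aa fell by 0.43 ± 0.11 (adjusted p = 0.00596), H2-Eb1 by 0.41 ± 0.11, H2-Ab1 by 0.40 ± 0.11, H2-DMb1 by 0.30 ± 0.11 and H2-DMa by 0.26 ± 0.08. For Cd74 the change was -0.43, -0.39 and -0.46 within replicate numbers 1, 2 and 3. None of 10 macrophage markers passed, and their sum ranged from 316 to 804 TPM in normoxia and from 271 to 1782 TPM after IH. The 10 lymphocyte markers stayed below a mean of 5 TPM. With the share of Gm28661 as a term none of the 6 passed (Cd74 adjusted p = 0.189, H2-Aa adjusted p = 0.321). The part of antigen-presenting cells was not tested.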
